A study of Homo sapiens with 10 samples.

Results

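The baseline transcriptome of SK-N-SH, a neuroblastoma cell line, was described from its mock-transfected library, which received no expression plasmid, and was set against the mock libraries of 2 other lines. The members were chosen by design and not by any measured value: 1 library each of mock SK-N-SH, mock U-2 OS (osteosarcoma) and mock K562 (leukaemia), so 3 of the 10 libraries of the series. All were treated with the transfection vehicle alone (Lipofectamine, PLUS reagent and OptiMEM). SK-N-SH was grown in EMEM and U-2 OS in McCoy's 5A, both adherent and collected up to 96 h later. K562 was grown in suspension in IMDM and collected up to 48 h later. Libraries of the same 3 lines transfected with 2 µg of a plasmid encoding PcTF, a synthetic activator that binds trimethylated lysine 27 of histone H3, served as a separate set. A U-2 OS line with an integrated dTF gene, given 1 µg/ml doxycycline for 96 h, replaced mock U-2 OS in an alternative. The other libraries were not used.

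With 1 library per line no difference has a replicate check, so no test, p-value or standard deviation is given. Line, medium, time and culture form cannot be told apart, nor can fewer cells of a kind and less of a transcript per cell in bulk RNA. Levels are FPKM, the authors' Cuffdiff estimates of fragments per kilobase of transcript, scaled to sequencing depth. Each gene's difference is its log2(FPKM + 0.1) in SK-N-SH minus the mean of U-2 OS and K562, centred so that the median was 0 over the 8145 genes at 1 FPKM or more in all 3 lines. A difference of 2 or more either way (4-fold on this scale) was called. It was computed for the 13806 genes that reached 1 FPKM in at least 1 of the 3 lines, termed measured genes below. Where a gene is listed at 0 in a line, the size of its difference is set by the 0.1 FPKM added, so its levels are given in place of a difference.

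Neuroblastoma arises from the sympathoadrenal branch of the neural crest, the embryonic cells that form sympathetic neurons and the chromaffin cells of the adrenal medulla. A set of transcription factors that includes PHOX2A, HAND2 and GATA3 binds its own and each other's genes and drives the enzymes that make noradrenaline. Neuroblastoma cells are also known in a mesenchymal state with migratory and matrix genes, and SK-N-SH is known to hold both neuroblast-like and substrate-adherent cells.

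Depth, read from the smallest step of FPKM in single-exon genes, was near 5174000 reads in SK-N-SH, 4858000 in U-2 OS and 4660000 in K562. Transcripts were detected from 15454 genes in SK-N-SH, 16083 in U-2 OS and 13240 in K562. For a transcript of 2000 bases, 1 read corresponded to 0.107 FPKM in SK-N-SH, 0.114 in U-2 OS and 0.119 in K562, and a gene listed at 0 could lie under 0.322 FPKM in SK-N-SH (3 reads). These limits and the intervals below are at 95% and cover counting error only. Values of 0 were no evidence of silence for the human leukocyte antigen region. Of 210 genes that the files place on an alternative sequence of chromosome 6, 199 were listed at 0 in all 3 lines, against 170 of 983 other chromosome 6 genes. CD99 and SNURF were likewise at 0 throughout. The 12 reference genes measured had a median difference of -0.25, with 1 called higher (REEP5). ACTB (beta-actin) was at 665 FPKM in SK-N-SH, 422 in U-2 OS and 892 in K562. GAPDH, a glycolytic enzyme, was at 599 FPKM in SK-N-SH, 1503 in U-2 OS and 428 in K562.

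Of the measured genes, 2092 (15.2%) were higher in SK-N-SH and 1483 (10.7%) were lower. Above each of the other lines separately by 4-fold or more were 797 genes (5.77%), and below each were 491 (3.56%). These percentages are the background for the lists that follow. With the U2OS-dTF library in place of mock U-2 OS, the genes above each line numbered 1439. Among the 2092, 226 were listed at 0 in both other lines and 1140 were at 0 in K562. A share of 25.1% of measured genes lay 4-fold or more above K562, against 8.8% above U-2 OS, so a difference against the mean of both lines often rested on K562. Of the genes called higher 280 stood below U-2 OS, which the 3 levels of each gene show.

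**Figure D1:**
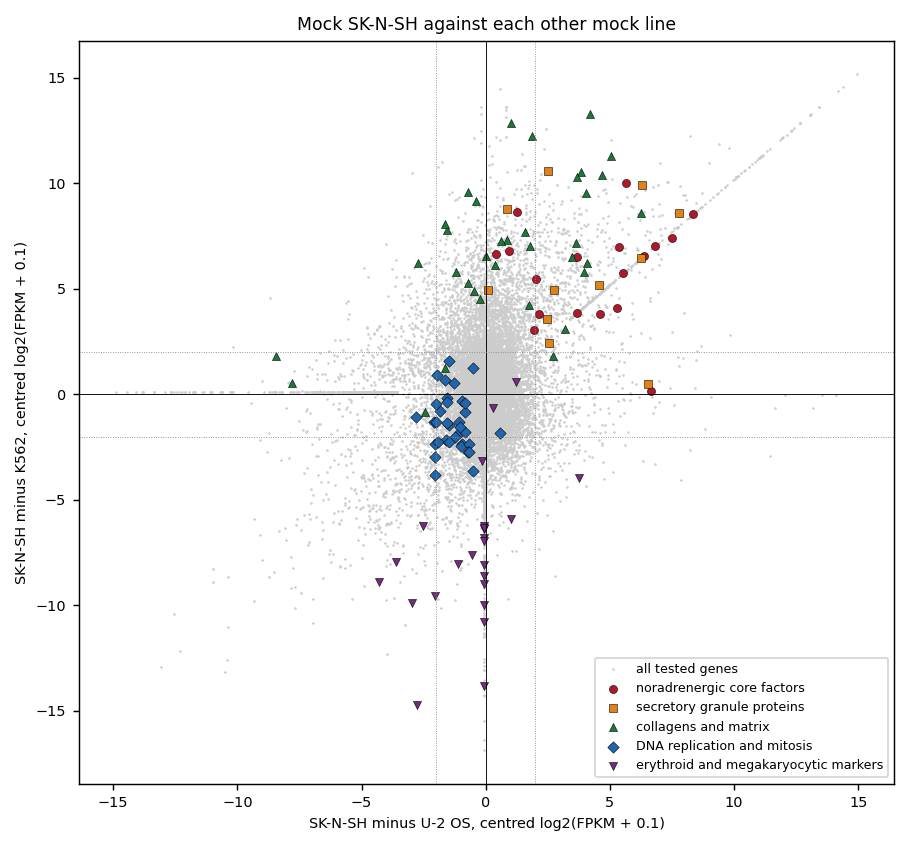
Centred log2(FPKM + 0.1) difference of mock SK-N-SH minus mock U-2 OS (horizontal axis) and minus mock K562 (vertical axis). Each point is 1 measured gene, dotted lines mark 4-fold, and 5 lists are coloured. The noradrenergic factors and granule proteins sit up and to the right, most matrix genes lie high against K562 with a spread around U-2 OS, and most erythroid markers lie low against K562 alone.

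Every measured factor of the noradrenergic core was higher in SK-N-SH than the mean of the other lines. Of 19 factors, 18 were measured and all 18 were called higher, with a median difference of 4.82 against 0.09 over all measured genes, and 13 were 4-fold above each line. The median was 3.31 with 1 FPKM added and 6.14 with 0.01 FPKM added. The list was known to fit this tumour type, so its direction serves only as a check of the label. Members that reached 1 FPKM in SK-N-SH alone could not be called lower, so the filter favoured this count. With no filter on low values 94.7% of the factors were higher. PHOX2A, a paired homeobox factor that specifies noradrenergic neurons, was at 34.3 FPKM in SK-N-SH and was listed at 0 in U-2 OS and K562. Its level in SK-N-SH corresponds to about 266 reads. PHOX2A lies within the listed locus chromosome 11, 71935882–71955220 (hg19). Positions given in brackets below are likewise listed loci, which can span overlapping or neighbouring genes and so exceed the gene itself. HAND2, a basic helix-loop-helix factor of sympathetic precursors (chromosome 4, 174447652–174451378), had 35.6 FPKM in SK-N-SH, against 0.757 in U-2 OS and 2.17 in K562. Its relative HAND1 had 8.78 FPKM in SK-N-SH and was listed at 0 in U-2 OS and K562.

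ISL1, a LIM homeobox factor of sympathetic and motor neurons (chromosome 5, 50668571–50690563), had 96.1 FPKM in SK-N-SH, against 1.71 in U-2 OS and 0 in K562. TFAP2B, an AP-2 factor of sympathetic precursors, had 40.2 FPKM in SK-N-SH, against 0.11 in U-2 OS and 0.153 in K562. GATA3, a zinc finger factor needed for sympathetic neurons (chromosome 10, 8096667–8117164), was at 14.8 FPKM in SK-N-SH, against 1.00 in U-2 OS and 0.0745 in K562. Its 95% interval of 12.9 to 16.9 FPKM in SK-N-SH did not overlap the 0.547 to 1.68 FPKM of U-2 OS. GATA2, which acts in both sympathetic and blood progenitors, was shared with the leukaemia line at 17.6 FPKM in SK-N-SH, 0.0671 in U-2 OS and 16.8 in K562. Its difference against U-2 OS was 6.64 and against K562 0.18. MEIS2, a TALE homeobox factor, had the highest level of the list at 135 FPKM in SK-N-SH, against 5.07 in U-2 OS and 10.3 in K562.

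SOX11, a factor of immature neurons, was at 11.6 FPKM in SK-N-SH, against 0.168 in U-2 OS and 0 in K562. Its relative SOX4 was at 36.7 FPKM in SK-N-SH, against 14.3 in U-2 OS and 0 in K562, so U-2 OS shared much of it. KLF7, a factor of neurite growth, differed from K562 more than from U-2 OS, with 37.4 FPKM in SK-N-SH, 26.2 in U-2 OS and 0.298 in K562. EYA1, a transcriptional coactivator, did so too, with 10.1 FPKM in SK-N-SH, 4.89 in U-2 OS and 0 in K562. TBX2, a T-box factor, was at 4.84 FPKM in SK-N-SH and was listed at 0 in U-2 OS and K562. LMO1, a LIM-only cofactor known as a neuroblastoma susceptibility gene, rested on 7 reads, 1.26 FPKM with an interval of 0.497 to 2.55 FPKM, and was listed at 0 in both other lines. INSM1, a zinc finger factor of neuroendocrine cells, was listed at 0 in all 3 lines.

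**Figure D2:**
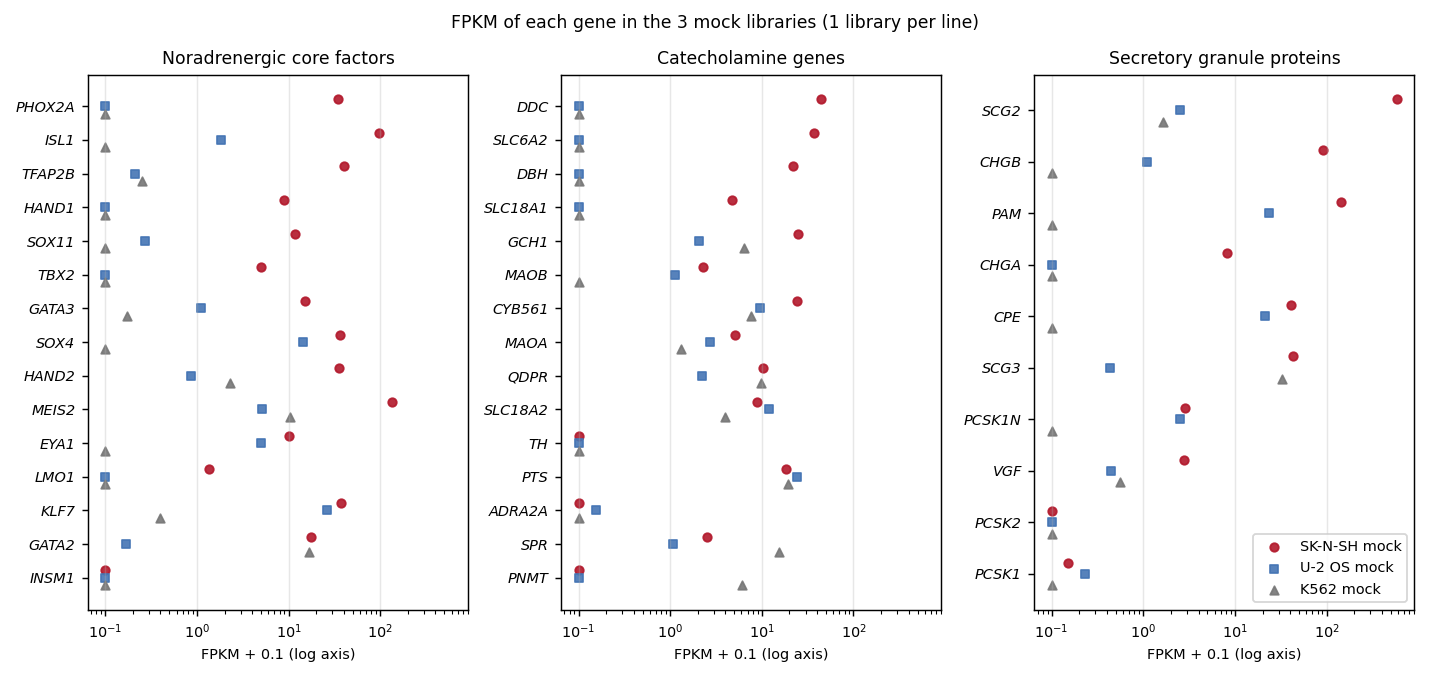
FPKM + 0.1 (log axis) of the noradrenergic core factors, catecholamine genes and secretory granule proteins named in the text, in mock SK-N-SH (circles), mock U-2 OS (squares) and mock K562 (triangles), 1 library each. Genes are ordered by their difference, and symbols at 0.1 are genes listed at 0. The circles lie to the right of both other symbols for each core factor plotted except INSM1, whereas TH sits at the left edge in all 3 lines.

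Catecholamine genes were unequal: the later steps of noradrenaline synthesis and its transport were high in SK-N-SH, while the first enzyme was listed at 0. Of 15 measured genes 6 were higher, 1 was lower and 8 were uncalled, with a median difference of 1.43. TH, tyrosine hydroxylase, the rate-limiting enzyme (chromosome 11, 2185159–2193035), was listed at 0 in SK-N-SH, U-2 OS and K562. At this depth that allows up to 0.356 FPKM in SK-N-SH (3 reads). DDC, the decarboxylase that yields dopamine (chromosome 7, 50526134–50633154), had 43.7 FPKM in SK-N-SH and was listed at 0 in U-2 OS and K562. DBH, which converts dopamine to noradrenaline (chromosome 9, 136501485–136524466), had 21.8 FPKM in SK-N-SH and was listed at 0 in U-2 OS and K562. The value of 0 for TH stood beside about 410 reads of DDC and 287 of DBH.

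The transporters differed in how far the other lines shared them. SLC6A2, the noradrenaline transporter (chromosome 16, 55689542–55740104), had 37.3 FPKM in SK-N-SH and was listed at 0 in U-2 OS and K562. SLC18A1, a vesicular monoamine transporter, had 4.68 FPKM in SK-N-SH and was listed at 0 in U-2 OS and K562. SLC18A2, its relative, was instead present in all lines at 8.81 FPKM in SK-N-SH, 11.9 in U-2 OS and 3.9 in K562. GCH1, which starts the synthesis of the cofactor tetrahydrobiopterin, had 24.6 FPKM in SK-N-SH, against 1.96 in U-2 OS and 6.28 in K562. Other cofactor genes were uncalled: PTS had 18.4 FPKM in SK-N-SH, 24.1 in U-2 OS and 19.3 in K562. QDPR had 10.2 FPKM in SK-N-SH, 2.12 in U-2 OS and 9.73 in K562. SPR had 2.45 FPKM in SK-N-SH, 0.979 in U-2 OS and 15.1 in K562. Of these 4 cofactor genes GCH1 alone was called.

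The monoamine oxidases, which break amines down, were modest in level. MAOB was at 2.17 FPKM in SK-N-SH, 1.03 in U-2 OS and 0 in K562 and was called higher. MAOA was at 4.97 FPKM in SK-N-SH, 2.65 in U-2 OS and 1.21 in K562. PNMT, which makes adrenaline from noradrenaline, was the 1 gene called lower, listed at 0 in SK-N-SH and also in U-2 OS, with 6.05 FPKM in K562. CYB561, which supplies electrons to DBH in the granule, was uncalled at 23.9 FPKM in SK-N-SH, 9.35 in U-2 OS and 7.6 in K562. The adrenergic receptor gene ADRA2A did not reach 1 FPKM in any line.

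Secretory granule genes, which encode the cargo and machinery of the vesicles that store amines and peptides, were all higher where measured. Of 15 genes 11 were measured and all 11 were higher, with a median difference of 4.83, and 8 were 4-fold above each line. A gene that reached 1 FPKM in SK-N-SH alone could not be called lower, so the filter favoured this count. With no filter on low values 80% of the 15 were higher. SCG2 (secretogranin II, chromosome 2, 224461658–224467217) had 587 FPKM in SK-N-SH, against 2.42 in U-2 OS and 1.53 in K562. CHGB and CHGA encode chromogranins. CHGB (chromosome 20, 5891974–5906005) had 90.8 FPKM in SK-N-SH, against 1.00 in U-2 OS and 0 in K562. CHGA (chromosome 14, 93389445–93401638) had 8.05 FPKM in SK-N-SH and was listed at 0 in U-2 OS and K562. SCG2 was the most abundant granule gene, and for all 3 genes the other lines stood at 2.42 FPKM or less.

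Not every granule gene set SK-N-SH apart from both lines. SCG3 was close to its level in K562, at 42.3 FPKM in SK-N-SH, 0.335 in U-2 OS and 32.7 in K562. PCSK1N was close to its level in U-2 OS, at 2.75 FPKM in SK-N-SH, 2.4 in U-2 OS and 0 in K562. PAM, which amidates peptides, was at 142 FPKM in SK-N-SH, against 23.2 in U-2 OS and 0 in K562. CPE, which trims them, was at 41.1 FPKM in SK-N-SH, against 21.4 in U-2 OS and 0 in K562. The prohormone convertase genes stayed under 1 FPKM: PCSK1 was at 0.0498 FPKM in SK-N-SH, 0.133 in U-2 OS and 0 in K562, and PCSK2 was listed at 0 in all lines. Neuropeptide precursors followed no single direction. NPY (neuropeptide Y, chromosome 7, 24323807–24331484) had 35.7 FPKM in SK-N-SH and was listed at 0 in U-2 OS and K562. VIP, a vasoactive peptide, had 23.1 FPKM in SK-N-SH, against 0.148 in U-2 OS and 0.154 in K562. GAL (galanin) was highest in K562, at 8.38 FPKM in SK-N-SH, 0 in U-2 OS and 81.1 in K562. NMU (neuromedin U) was called lower, at 2.2 FPKM in SK-N-SH, 17.1 in U-2 OS and 767 in K562. Of 16 neuropeptide genes 6 were measured, 3 of them higher and 2 lower.

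Several granule and peptide genes are textbook targets of the cAMP-responsive factor CREB, which binds the palindrome TGACGTCA, so RefSeq promoters (GRCh38.p14, 250 bases before to 50 after the start) were searched for these 8 letters, which read the same on both strands. The motif was in 649 of 35116 promoters (1.85%), in 3 of 11 granule genes with a promoter in the table, 2 of 13 neuropeptide genes and 1 of 10 catecholamine genes. The 30 bases around each match follow, 5′ to 3′, with the motif in capitals, to set the match beside the levels.
CHGA: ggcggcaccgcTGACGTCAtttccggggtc
VGF: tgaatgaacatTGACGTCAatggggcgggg
PCSK1: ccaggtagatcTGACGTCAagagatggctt
SLC18A2: ccctccggccgTGACGTCAgagccggacgg
CARTPT: ccggcgggcatTGACGTCAagcgccggcgg
SST: gcctcctagccTGACGTCAgagagagagtt
The windows are chr14:92923085-92923114 (plus strand), chr7:101165630-101165659 (minus), chr5:96433307-96433336 (minus), chr10:117241055-117241084 (plus), chr5:71719121-71719150 (plus) and chr3:187670423-187670452 (minus). The motif starts 54 bases before the RefSeq start in CHGA, 79 in VGF, 77 in PCSK1, 48 in SLC18A2, 143 in CARTPT and 47 in SST. Levels of the 6 genes did not run together. CHGA was listed at 0 outside SK-N-SH, as given above. VGF, a precursor of secreted neuropeptides, was at 2.7 FPKM in SK-N-SH, against 0.349 in U-2 OS and 0.454 in K562, which is about 33 reads in SK-N-SH, 4 in U-2 OS and 5 in K562. SLC18A2 was uncalled, PCSK1 was under 1 FPKM, and CARTPT and SST were listed at 0 in all 3 lines. A match is a description of the letters and not of factor binding.

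Neuronal structural genes held some of the largest differences. With 0.1 FPKM added, UCHL1 had the largest of any gene that was not a small RNA gene. UCHL1 was listed at 0 in K562, so this rank depends on the amount added. Of 30 measured cytoskeleton and axon growth genes 23 were higher and 0 were lower (median 3.62). UCHL1 (PGP9.5, a ubiquitin hydrolase abundant in neurons) had 305 FPKM in SK-N-SH, against 0.222 in U-2 OS and 0 in K562. STMN2, which binds tubulin in growing axons, had 455 FPKM in SK-N-SH, against 1.32 in U-2 OS and 0 in K562. The intermediate filament gene NEFM was at 44.4 FPKM in SK-N-SH, against 0.621 in U-2 OS and 0 in K562. INA, of the same class, had 48.5 FPKM in SK-N-SH and was listed at 0 in U-2 OS and K562. Other filament genes were shared with 1 line. NEFL was at 32.9 FPKM in SK-N-SH, 21.6 in U-2 OS and 0 in K562. NEFH was at 6.95 FPKM in SK-N-SH, 0.175 in U-2 OS and 4.07 in K562. DCX (doublecortin), a marker of young neurons, was at 17.5 FPKM in SK-N-SH, against 0.0229 in U-2 OS and 0 in K562. TUBB3 (neuronal beta-tubulin) was at 18.4 FPKM in SK-N-SH, against 1.18 in U-2 OS and 0.136 in K562. MAP2 was at 62.4 FPKM in SK-N-SH, against 6.89 in U-2 OS and 0.66 in K562. The most abundant gene of the list, MAP1B, was read in all 3 lines, at 532 FPKM in SK-N-SH, 29.1 in U-2 OS and 181 in K562. KIF5A and TUBB2A were highest in K562. MAPT (tau) was under 1 FPKM in all lines.

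Release and excitability genes were divided between those restricted to SK-N-SH and those shared with U-2 OS. Of 20 measured vesicle genes 11 were higher and 1 was lower (AMPH, at 9.98 FPKM in U-2 OS and listed at 0 elsewhere). SV2C, a vesicle glycoprotein, was at 6.77 FPKM in SK-N-SH and RAB3C, a vesicle GTPase, at 3.82 FPKM, and both were listed at 0 in the other lines. SYT1, the calcium sensor of release, had 34.2 FPKM in SK-N-SH, against 10.3 in U-2 OS and 0 in K562. SNAP25, a SNARE protein of release, was alike in the adherent lines at 22.4 FPKM in SK-N-SH, 21.4 in U-2 OS and 0.115 in K562. SYP (synaptophysin) was under 1 FPKM in each line.

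Of 21 measured channel and receptor genes 13 were higher and 0 were lower against the mean (median 3.62). The list median was 4.32 against K562, where 11 genes were listed at 0, and 2.08 against U-2 OS. Against U-2 OS alone 11 genes were 4-fold above and 3 were 4-fold below. CHRNA3 and CHRNB4, the subunits of the ganglionic nicotinic receptor, were both higher. CHRNA3 had 43.8 FPKM in SK-N-SH, against 2.56 in U-2 OS and 0.404 in K562. CHRNB4 had 6.6 FPKM in SK-N-SH, against 0.182 in U-2 OS and 0 in K562. KCNQ3, a potassium channel of the M-current, was highest in U-2 OS, at 1.14 FPKM in SK-N-SH, 6.9 in U-2 OS and 0 in K562. The sodium channel SCN9A, abundant in sympathetic and sensory neurons, had 35.8 FPKM in SK-N-SH, against 0.0857 in U-2 OS and 4.92 in K562. KCNH2, a potassium channel, was highest in K562, at 7.86 FPKM in SK-N-SH, 0.665 in U-2 OS and 43.3 in K562.

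Of 11 measured RNA-binding regulators of neuronal transcripts 4 were higher and 0 were lower. This rested mostly on K562: the list median was 3.67 against K562 and -0.08 against U-2 OS, and 1 gene was 4-fold above each line. ELAVL4 (HuD) had 98.4 FPKM in SK-N-SH, against 0.49 in U-2 OS and 0 in K562. SRRM4, which includes neuronal microexons, had 1.63 FPKM in SK-N-SH, against 0.371 in U-2 OS and 0 in K562. REST, a repressor of neuronal genes outside neurons, was present at 28.9 FPKM in SK-N-SH, 67.5 in U-2 OS and 11.1 in K562. PTBP1, which opposes neuronal splicing, was at 18.6 FPKM in SK-N-SH, 13.5 in U-2 OS and 44.7 in K562. Neither was called.

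**Figure D3:**
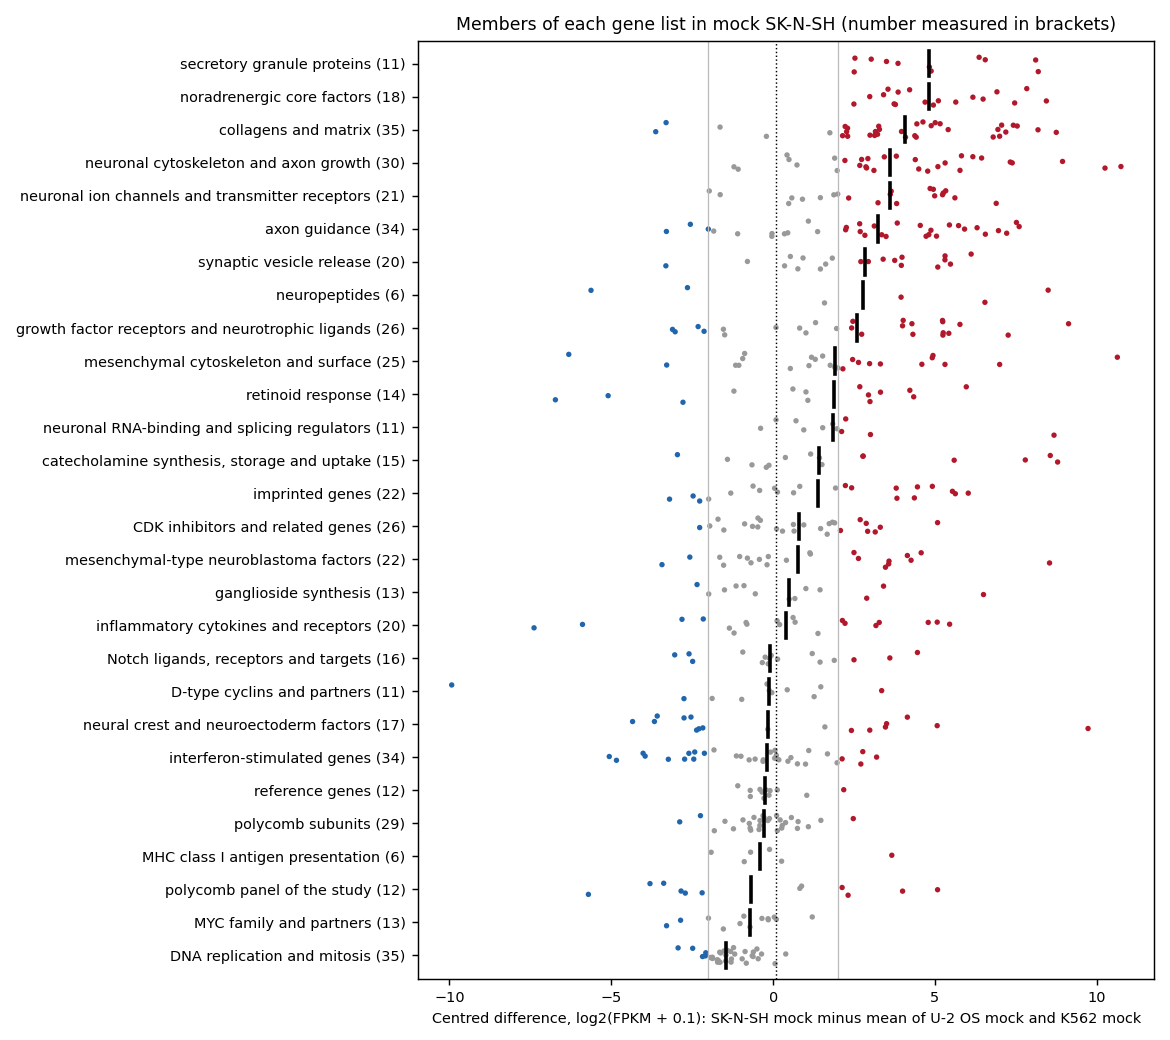
Centred difference on the log2(FPKM + 0.1) scale of mock SK-N-SH minus the mean of mock U-2 OS and mock K562, for each measured member of 28 gene lists. Red points are called higher, blue points called lower, black bars are list medians, grey lines mark 4-fold and the dotted line is the median of all measured genes (0.09). Granule, noradrenergic core and matrix lists stand at the top, and DNA replication at the bottom with a median of -1.46.

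Axon guidance genes were higher in 23 of 34 and lower in 3 (median 3.24). NRP1 and NRP2 are semaphorin and VEGF co-receptors. NRP1 had 77.1 FPKM in SK-N-SH, against 2.65 in U-2 OS and 0 in K562. NRP2 had 32.7 FPKM in SK-N-SH, against 0.192 in U-2 OS and 0 in K562. UNC5C, a netrin receptor, had 36.9 FPKM in SK-N-SH, against 0.317 in U-2 OS and 0 in K562. SLIT3, a repellent ligand, had 61.7 FPKM in SK-N-SH, against 2.41 in U-2 OS and 0 in K562. Relatives of these genes were higher in U-2 OS. SEMA3E was called lower, at 0.0997 FPKM in SK-N-SH, 39.2 in U-2 OS and 0 in K562. ROBO1, a receptor for SLIT ligands, was at 45.6 FPKM in SK-N-SH, 203 in U-2 OS and 0 in K562. The ephrin receptor genes EPHA3, EPHA4 and EPHA5 were listed at 0 in SK-N-SH and K562. Of the 34 genes, 21 were listed at 0 in K562, and 12 were 4-fold above each line. The list median was 5.33 against K562 and 1.19 against U-2 OS. Against U-2 OS 7 genes were 4-fold below, among them ROBO1, which was called higher against the mean.

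Growth factor receptors of the sympathetic lineage were led by RET. RET, the receptor for GDNF-family ligands (chromosome 10, 43572517–43625797), had 68.1 FPKM in SK-N-SH, against 0.0517 in U-2 OS and 0 in K562. GDNF, its ligand gene, had 3.68 FPKM in SK-N-SH and was listed at 0 in U-2 OS and K562, so ligand and receptor genes were both present in this line. Its co-receptor GFRA2 was at 1.48 FPKM in SK-N-SH and listed at 0 in both other lines, while GFRA1 and GFRA3 stayed under 1 FPKM. ALK, a receptor kinase mutated in familial neuroblastoma (chromosome 2, 29415640–30144477), had 4.76 FPKM in SK-N-SH, against 0.0675 in U-2 OS and 0 in K562. The neurotrophin receptors read here were low. NTRK3 was at 0.0491 FPKM in SK-N-SH, 1.81 in U-2 OS and 0 in K562. NTRK2 and NGFR were under 1 FPKM in all 3 lines. The ligand BDNF was at 6.1 FPKM in SK-N-SH, 8.72 in U-2 OS and 0 in K562.

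Receptor kinases common in mesenchymal cells were also high. PDGFRA had 77.9 FPKM in SK-N-SH, against 2.54 in U-2 OS and 0 in K562. EGFR had 52.8 FPKM in SK-N-SH, against 14.4 in U-2 OS and 0.0396 in K562. MET had 47.8 FPKM in SK-N-SH, against 14.1 in U-2 OS and 0.333 in K562. The ERBB ligand NRG1 had 53.7 FPKM in SK-N-SH, against 9.79 in U-2 OS and 0 in K562. ERBB3, a receptor for it, was called lower at 0.208 FPKM in SK-N-SH, 2.32 in U-2 OS and 2.87 in K562. MDK and PTN encode heparin-binding growth factors. MDK was abundant in all lines at 368 FPKM in SK-N-SH, 107 in U-2 OS and 209 in K562. PTN had 61.7 FPKM in SK-N-SH, against 20.9 in U-2 OS and 0 in K562. In all, 15 of 26 measured genes were higher and 4 lower (PDGFA, FGFR2, FGFR3 and ERBB3). Most of the genes called higher rested on K562: the list median was 5.12 against K562 and 0.84 against U-2 OS. Against K562 17 genes were 4-fold above and 3 below, and against U-2 OS 8 were above and 4 below.

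Few MYC family genes and partners were called. MYCN, amplified in many aggressive neuroblastomas (chromosome 2, 16080020–16087129), was at 0.961 FPKM in SK-N-SH, against 0.17 in U-2 OS and 0 in K562, about 12 reads in SK-N-SH with an interval of 0.497 to 1.68 FPKM. An antisense gene overlaps it, and whether counting used strand is not given in the sources used here. MYC was at 7.21 FPKM in SK-N-SH, 13.6 in U-2 OS and 209 in K562, with a difference of -2.86. ODC1, a MYC target that starts polyamine synthesis, was at 151 FPKM in SK-N-SH, 175 in U-2 OS and 547 in K562. The list held 0 genes higher and 2 lower of 13 (MYC and MYCL1), and LIN28A was just short of the threshold. MYCN, under 1 FPKM in each line, was not among the measured genes.

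Most proliferation genes lay below both other lines, by less than 4-fold. Of 35 genes of DNA replication and mitosis 29 were below both other lines in FPKM, a count for which no share over all measured genes was computed. The median difference was -1.46, against 0.09 over all measured genes. Against U-2 OS the list median was -1.46 (all measured genes -0.04), and against K562 it was -1.45 (all measured genes 0.21). The median FPKM was 22 in SK-N-SH, 54.3 in U-2 OS and 53.7 in K562. The 5 called lower were CDC20, GINS2, CCNE1, TPX2 and CDT1, and 0 were called higher. These 5 made up 14.3% of the list, near the 10.7% of all measured genes called lower. MKI67, which encodes the Ki-67 antigen, had 65.5 FPKM in SK-N-SH, 173 in U-2 OS and 193 in K562. TOP2A (topoisomerase II alpha) had 129 FPKM in SK-N-SH, 361 in U-2 OS and 156 in K562.

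Each line had its own D-type cyclin pattern. CCND1 was at 146 FPKM in SK-N-SH, 99.6 in U-2 OS and 1.99 in K562. CCND2 (chromosome 12, 4382902–4414522) was instead listed at 0 in SK-N-SH and stood at 189 FPKM in U-2 OS and 51.2 in K562. CCND3 was at 2.58 FPKM in SK-N-SH, 5.99 in U-2 OS and 54.7 in K562. CDK4 and CDK6, their kinase partners, were uncalled. CDK4 had 58.2 FPKM in SK-N-SH, 53.8 in U-2 OS and 35.1 in K562. CDK6 had 73.8 FPKM in SK-N-SH, 68.9 in U-2 OS and 13.9 in K562. CDKN1A (p21), a CDK inhibitor, was higher, with 51.5 FPKM in SK-N-SH, 16 in U-2 OS and 3.93 in K562. ZMAT3, a zinc finger gene, had 39.4 FPKM in SK-N-SH, 11.7 in U-2 OS and 1.6 in K562. CDKN2A, which encodes p16 and p14ARF (chromosome 9, 21967138–21994490), was at 3.25 FPKM or about 13 reads, and listed at 0 in both other lines. Of 26 CDK inhibitor and related genes, a list that also holds p53 targets, 7 were higher and 1 was lower. Only 1 was 4-fold above each line, and the list median was -0.02 against U-2 OS and 1.83 against K562.

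Mesenchymal genes were high in the same library, beside the noradrenergic ones. Of 37 collagen and matrix genes 35 were measured, 30 were higher and 2 were lower, with a median difference of 4.09. Most of this was against K562: the median was 7.04 against K562 and 1.02 against U-2 OS, 30 genes were 4-fold above K562 and 13 above U-2 OS. TGFBI, an adhesion protein induced by TGF-beta, had 937 FPKM in SK-N-SH, against 48.4 in U-2 OS and 0 in K562. VCAN (versican) had 342 FPKM in SK-N-SH, against 9.55 in U-2 OS and 0.0462 in K562. LUM (lumican) had 123 FPKM in SK-N-SH, against 4.39 in U-2 OS and 0 in K562. TNC (tenascin C) had 138 FPKM in SK-N-SH, against 7.73 in U-2 OS and 0.102 in K562. These 4 were 4-fold above each line, and so was FN1 (fibronectin) with 419 FPKM in SK-N-SH, against 42.9 in U-2 OS and 51.9 in K562.

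Collagen chains were not uniform. COL1A1 (chromosome 17, 48261457–48279000) had 441 FPKM in SK-N-SH, against 28.7 in U-2 OS and 0.224 in K562. COL1A2, the chain that pairs with it in type I collagen (chromosome 7, 94023873–94060544), was at 0.259 FPKM in SK-N-SH, 0 in U-2 OS and 0.861 in K562, which is about 7 reads in SK-N-SH. The chains of one collagen stood far apart in this library. COL3A1 was at 971 FPKM in SK-N-SH, 451 in U-2 OS and 0.0404 in K562. COL11A1 and COL12A1 were lower. COL11A1 was at 0.228 FPKM in SK-N-SH, 108 in U-2 OS and 0 in K562. COL12A1 was at 0.0338 FPKM in SK-N-SH, 27.8 in U-2 OS and 0 in K562. COL6A3 and FBN2 were highest in U-2 OS, and FBN2 was at 6.76 FPKM in SK-N-SH, 42.2 in U-2 OS and 0 in K562. SPARC, a matrix protein of bone and fibroblasts, was high in both adherent lines at 207 FPKM in SK-N-SH, 271 in U-2 OS and 7.31 in K562.

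Surface and cytoskeletal genes of mesenchyme included several that were near absent from K562 and lower in U-2 OS. NT5E (CD73) had 347 FPKM in SK-N-SH, against 0.386 in U-2 OS and 0 in K562. CAV1 (caveolin) had 295 FPKM in SK-N-SH, against 54.1 in U-2 OS and 0 in K562. CD44 had 104 FPKM in SK-N-SH, against 16.2 in U-2 OS and 0.622 in K562. THY1 (CD90) had 36.5 FPKM in SK-N-SH, against 8.59 in U-2 OS and 0 in K562. VIM (vimentin) was the most abundant, at 1909.9 FPKM in SK-N-SH, 385 in U-2 OS and 487 in K562. Of 25 genes 11 were higher and 2 lower, MYL9 and CNN1, both listed at 0 in SK-N-SH. TAGLN, a smooth muscle gene, was uncalled at 3.62 FPKM in SK-N-SH, 2.14 in U-2 OS and 0.447 in K562. ACTA2 (smooth muscle actin) was at 28.8 FPKM in SK-N-SH, against 5.14 in U-2 OS and 0.179 in K562.

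Transcription factors of the mesenchymal neuroblastoma state were mixed. PRRX1, which can shift neuroblastoma cells to that state (chromosome 1, 170633313–170708541), had 389 FPKM in SK-N-SH, against 11.1 in U-2 OS and 0 in K562. WWTR1 and YAP1, the Hippo pathway co-activators, were shared with U-2 OS. WWTR1 had 38.3 FPKM in SK-N-SH, 26.4 in U-2 OS and 0 in K562. YAP1 had 19.1 FPKM in SK-N-SH, 26.4 in U-2 OS and 0 in K562. FOSL1, FOSL2, RUNX1, RUNX2 and SMAD3 were uncalled, and ID1 was lower at 3.9 FPKM in SK-N-SH, 53.5 in U-2 OS and 35.5 in K562. In all, 9 of 22 factors were higher and 2 lower. Much of this rested on K562, with a list median of 1.64 against K562 and -0.61 against U-2 OS. Against U-2 OS 2 factors were 4-fold above and 3 were 4-fold below. YAP1, called higher against the mean, stood below U-2 OS.

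Markers of other cell types were read in full. Of 14 fibroblast and pericyte markers 12 were measured and 11 were higher, with a summed level of 3459 FPKM in SK-N-SH, 642 in U-2 OS and 5.36 in K562. RGS5, a defining pericyte gene, had 1261 FPKM in SK-N-SH, against 5.95 in U-2 OS and 3.44 in K562. CSPG4, another pericyte marker, was under 1 FPKM in all lines and COL1A2 was near 0. Several of these are also in the matrix list. The summed level of the 12 noradrenergic neuroblastoma markers was 856 FPKM in SK-N-SH, 6.41 in U-2 OS and 2.25 in K562. All 11 that were measured were 4-fold above each line, and TH, listed at 0 in all 3 lines, was the 1 not measured. Whether 1 kind of cell carried both sets or the culture was mixed was not tested.

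Several defining glial markers of the neural crest were listed at 0, with other markers present. Of 14 glial markers 7 were measured, 2 were higher and 2 lower, and the list summed to 87.9 FPKM in SK-N-SH, 124 in U-2 OS and 54.1 in K562. SOX10, CDH19 and FABP7 were listed at 0 in all 3 lines, and FOXD3 was at 0 in SK-N-SH. S100B, a calcium-binding protein of glia and other cells, was at 3.1 FPKM in SK-N-SH (about 15 reads) and listed at 0 in the other lines. GPM6B, a membrane proteolipid, was also called higher, at 14.9 FPKM in SK-N-SH, 6.7 in U-2 OS and 0.588 in K562. S100B and GPM6B made up a small part of the summed glial level of SK-N-SH, most of which lay in uncalled markers. Of 8 pigment cell markers only MITF was measured, and it was called lower at 1.59 FPKM in SK-N-SH, 22.9 in U-2 OS and 9.27 in K562. TWIST1, a neural crest and mesenchyme factor (chromosome 7, 19155091–19157295), had 83.9 FPKM in SK-N-SH and was listed at 0 in U-2 OS and K562. Neural crest and neuroectoderm factors as a list gave 7 higher and 8 lower of 17.

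Most epithelial, endothelial and blood markers were low. A marker that reached 1 FPKM only outside SK-N-SH could not be called higher, so the filter favoured the counts called lower. Of 14 epithelial markers 5 were measured, 0 were higher and 4 were lower. KRT8 (keratin 8) had 0.483 FPKM in SK-N-SH, 11.1 in U-2 OS and 10.6 in K562. KRT18 had 3.95 FPKM in SK-N-SH, 29.7 in U-2 OS and 86 in K562. CDH5 and CLDN5 (endothelial) were listed at 0 in all lines. Of 24 measured erythroid and megakaryocytic markers 20 were lower, with GATA1 at 55.1 FPKM in K562 and listed at 0 elsewhere. Only 4 of the 24 reached 1 FPKM in SK-N-SH, and the calls rested on K562. The list median was -7.77 against K562 and -0.09 against U-2 OS, with 22 markers 4-fold below K562 and 6 below U-2 OS. HBG2 and HBG1, near-identical globin genes, were listed at 0 in SK-N-SH, with HBG2 at 2912 FPKM and HBG1 at 1567 FPKM in K562. Of 13 measured blood markers 10 were lower, and 11 were 4-fold below K562 against 4 below U-2 OS. ARHGDIB, a GTPase regulator of blood cells, was called higher at 75.3 FPKM in SK-N-SH, 3.44 in U-2 OS and 92.2 in K562.

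Osteoblast markers were mixed and gave no clear check of the osteosarcoma label of U-2 OS. Of 16 markers 8 were measured, and 5 of these were 4-fold or more below U-2 OS in SK-N-SH, against 10.9% of all measured genes. Against the mean of both lines 2 were higher and 3 lower. BMP4 was at 27.9 FPKM in U-2 OS and listed at 0 elsewhere, so it was measured through U-2 OS alone and could only lie below it. IBSP and DMP1 were listed at 0 in all lines, and SP7 stayed under 1 FPKM. COL1A1, a bone matrix chain, was higher in SK-N-SH than in U-2 OS.

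Notch signalling genes, which act in sympathetic differentiation, gave as many calls up as down. DLK1, a Notch ligand-like protein of chromaffin cells, was at 56.3 FPKM in SK-N-SH, 0 in U-2 OS and 67.2 in K562. HES1 and HES6, Notch-linked repressors, were lower. HES1 had 1.68 FPKM in SK-N-SH, 6.19 in U-2 OS and 34.8 in K562. HES6 had 1.16 FPKM in SK-N-SH, 0.882 in U-2 OS and 51.7 in K562. Of 16 Notch genes 3 were higher and 3 lower. Retinoic acid drives neuroblastoma cells to differentiate, and 7 of 14 retinoid genes were higher and 3 lower. CRABP1, which binds retinoic acid, had 6.1 FPKM in SK-N-SH and was listed at 0 in U-2 OS and K562. RARB, a retinoid receptor gene and itself a retinoid target, was at 12.9 FPKM in SK-N-SH, against 2.87 in U-2 OS and 1.33 in K562. ALDH1A1 and ALDH1A2, which make retinoic acid, were listed at 0 in SK-N-SH. ALDH1A3, the third enzyme, was at 5.73 FPKM in SK-N-SH, against 0.871 in U-2 OS and 0.26 in K562.

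Gangliosides such as GD2 are surface glycolipids of neuroblastoma. ST8SIA1, the sialyltransferase that makes GD3, the precursor of GD2, was at 0.0809 FPKM in SK-N-SH, 5.17 in U-2 OS and 0 in K562 and was uncalled. B4GALNT1, which makes GD2 from GD3, was at 1.34 FPKM in SK-N-SH, 4.48 in U-2 OS and 3.59 in K562. Neither gene of the GD2 steps was above U-2 OS. ST8SIA3, a relative, had 10.5 FPKM in SK-N-SH, against 0.0411 in U-2 OS and 0 in K562. Of 13 measured ganglioside genes 3 were higher and 1 lower.

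Among 22 measured imprinted genes 10 were higher and 3 lower. MEST, a paternally expressed gene, had 14.2 FPKM in SK-N-SH, against 0.392 in U-2 OS and 0 in K562. H19, a maternally expressed RNA, had 26.8 FPKM in SK-N-SH, against 0.973 in U-2 OS and 1.52 in K562. PEG10 had 24.5 FPKM in SK-N-SH, against 3.05 in U-2 OS and 0.904 in K562. GRB10 and PLAGL1 were called lower. GRB10 was at 1.37 FPKM in SK-N-SH, 5.55 in U-2 OS and 32.8 in K562. PLAGL1 was at 5.41 FPKM in SK-N-SH, 24 in U-2 OS and 39.4 in K562. MEG3, maternally expressed beside DLK1, was listed at 0 in SK-N-SH.

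The study followed a panel of 14 polycomb target genes, and their levels without PcTF were read in each line. Of 12 measured, 4 were higher and 6 lower. CDKN2A, CADM1, CLU and TRIM22 were the ones called higher. CADM1 had 26.8 FPKM in SK-N-SH, 28.9 in U-2 OS and 0 in K562. CLU had 22.1 FPKM in SK-N-SH, 48.1 in U-2 OS and 0.322 in K562. TRIM22 had 15.4 FPKM in SK-N-SH, 13.8 in U-2 OS and 0.817 in K562. Against U-2 OS only CDKN2A was 4-fold higher. HK2 was at 4.91 FPKM in SK-N-SH, 2.7 in U-2 OS and 2.6 in K562. LAMB3 was at 2.16 FPKM in SK-N-SH, 2.94 in U-2 OS and 0.446 in K562. HOXA6, HOXB4, IRF8, RUNX3 and CDH1 were listed at 0 in SK-N-SH, and ATF3 (0.112 FPKM), WT1 (0.0849 FPKM) and CASZ1 (0.0498 FPKM) were near 0. WT1 was at 2.39 FPKM in U-2 OS and 38.1 in K562. Few genes of the repressor complexes were called. Of 29 polycomb subunits and partners 1 was higher (PCGF2) and 2 were lower (CBX7 and PHF19). PCGF2 was at 7.87 FPKM in SK-N-SH, 4.47 in U-2 OS and 0.357 in K562. EZH2, the methyltransferase of the mark that PcTF binds, was at 19.4 FPKM in SK-N-SH, 7.8 in U-2 OS and 75.5 in K562. BMI1 shares exons with a read-through gene, so its level of 2.11 FPKM in SK-N-SH and 17 in U-2 OS is uncertain.

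**Figure D4:**
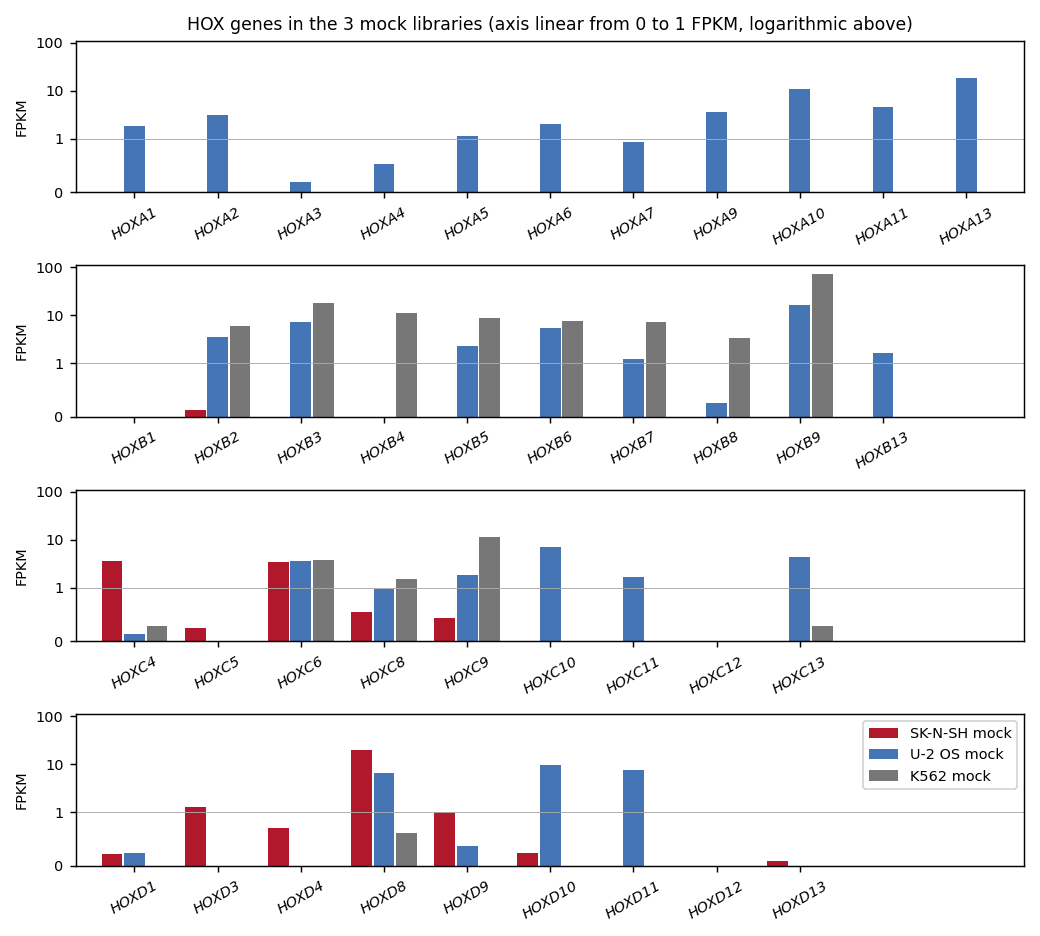
FPKM of the HOXA, HOXB, HOXC and HOXD genes in mock SK-N-SH, mock U-2 OS and mock K562, 1 library each, on an axis that is linear from 0 to 1 and logarithmic above. SK-N-SH bars are confined to HOXC4 to HOXC9, 1 low HOXB2 value and HOXD genes, U-2 OS bars appear in all 4 clusters, and K562 bars are highest in HOXB.

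HOX genes keep positional identity and are classical polycomb targets. The list was added after its values were seen. All 11 HOXA genes were listed at 0 in SK-N-SH, and their summed level in U-2 OS was 47.7 FPKM, with K562 at 0 too. Of 10 HOXB genes 9 were at 0 in SK-N-SH, and the list summed to 0.138 FPKM, against 38 in U-2 OS and 135 in K562. HOXD8 was the highest HOX gene of SK-N-SH, at 19.5 FPKM in SK-N-SH, 6.56 in U-2 OS and 0.608 in K562. HOXC4 was at 3.55 FPKM in SK-N-SH, against 0.129 in U-2 OS and 0.292 in K562. HOXC6 was alike in all lines at 3.52 FPKM in SK-N-SH, 3.63 in U-2 OS and 3.76 in K562. HOXD3 was at 1.29 FPKM in SK-N-SH (about 15 reads) and 0 elsewhere. Genes numbered 10 to 13, which pattern posterior and distal structures, were at most 0.24 FPKM in SK-N-SH, whereas HOXA13 was at 18.7 FPKM and HOXD10 at 9.72 FPKM in U-2 OS. HOXC4, HOXC5 and HOXC6 share exons in some transcripts, so the division of reads among them is uncertain.

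By their medians, interferon-stimulated genes of SK-N-SH lay between those of the other lines. Of 34 measured interferon-stimulated genes 4 were higher and 10 lower, with a median difference of -0.19, and the other lines stood on opposite sides: the median was -2.21 against U-2 OS and 1.33 against K562. IFI44 was at 5.69 FPKM in SK-N-SH, 74.2 in U-2 OS and 0 in K562. IFITM1 was at 1.87 FPKM in SK-N-SH, 3.99 in U-2 OS and 1085 in K562. Class I presentation could be read only from genes outside the HLA region. B2M (beta-2-microglobulin) was at 99 FPKM in SK-N-SH, 287 in U-2 OS and 120.0 in K562. Of 20 inflammatory genes 7 were higher and 4 lower. CCL2, a monocyte chemokine, had 120.4 FPKM in SK-N-SH, against 4.52 in U-2 OS and 1.57 in K562. CXCL12 had 11.4 FPKM in SK-N-SH, against 1.09 in U-2 OS and 0 in K562. IL18 was lower at 0.206 FPKM in SK-N-SH, 91.7 in U-2 OS and 29.1 in K562. TNFAIP3, which limits NF-kappaB signalling, was listed at 0 in SK-N-SH and stood at 5.28 FPKM in U-2 OS and 6.57 in K562.

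By size of difference alone, small RNA genes differed most. All 15 genes with the largest positive differences, among loci of 300 bp or more, were microRNA or small nucleolar RNA genes. MIR3650 (2273 FPKM) and SNORD44 (1954 FPKM) came first, and each of the 15 was listed at 0 in both other lines. A listed locus can span overlapping genes, so the limit of 300 bp did not leave out short genes. Of these 15 genes 8 were at 0 in PcTF-transfected SK-N-SH, and 4 shared their FPKM value exactly with another gene. Among the 15 most negative, 9 were small RNA genes, SNORD38B first. SNORD38B was listed at 0 in SK-N-SH and at 1237 FPKM in PcTF-transfected SK-N-SH, so the order of these short genes was not stable between libraries. Of 225 measured small RNA genes 105 were higher and 91 lower, so most of this class was called one way or the other. The 6 long genes at the negative end were CCND2, UCA1, HBG2, DSG2, HTATIP2 and VRK2. DSG2, a desmosomal cadherin, was at 0.0353 FPKM in SK-N-SH, 54.2 in U-2 OS and 57.7 in K562. VRK2, a kinase, was listed at 0 in SK-N-SH, with 48 FPKM in U-2 OS and 25 in K562.

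The same contrast in the PcTF-transfected libraries of the 3 lines was computed as a separate set. Leaving small RNA genes out, 14.6% of measured genes were higher and 10.2% lower in the mock set. Of these, 1507 genes were called higher in both sets, 75.8% of the mock calls and 78.4% of the PcTF-library calls, and 7 were called in opposite directions. For genes called lower, 831 were in both, 59.7% of the mock calls and 57.7% of the PcTF-library calls. In the PcTF libraries without small RNA genes 13.8% of 13978 genes were called higher and 10.3% lower, and with them 14.3% and 10.8% of 14247 genes. All 17 measured noradrenergic core factors were higher there (median 5.36), 11 of 12 granule genes (median 4.01), and 28 of 36 matrix genes (median 3.99). LMO1 was not measured there, with 0.146 FPKM in PcTF-transfected SK-N-SH. Of 39 interferon-stimulated genes measured there, 14 were higher and 4 lower. These libraries received plasmid, so they are not replicates of the mock libraries.

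Levels also differed by chromosome, and on many of them all medians had 1 sign. The medians against the mean, U-2 OS and K562 are not independent, since all use the same SK-N-SH library and the mean combines the other lines. A shared sign is thus weak information, and some medians were close to 0 (chromosome 15 at -0.03 against the mean). Among genes at 1 FPKM or more in all 3 lines, those on chromosome 7 had a median difference of 0.46 (398 genes), and those on chromosome 22 a median of -0.66 (162 genes). Chromosome 7 was higher against both lines, by 0.62 against U-2 OS and 0.27 against K562, and 77.6% of its genes lay above U-2 OS. Chromosome 22 was lower against both, with medians of -0.39 against U-2 OS and -0.98 against K562. Chromosomes 13 and 14 had medians of 0.67 and 0.45, chromosome 13 with 0.25 against U-2 OS and 1.01 against K562. In the PcTF-transfected libraries the medians were 0.45 for chromosome 7, 0.58 for chromosome 13 and -0.77 for chromosome 22. Neighbouring genes share a chromosome and are not independent, and copy number was not measured, so its part in these medians was not tested.

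**Figure D5:**
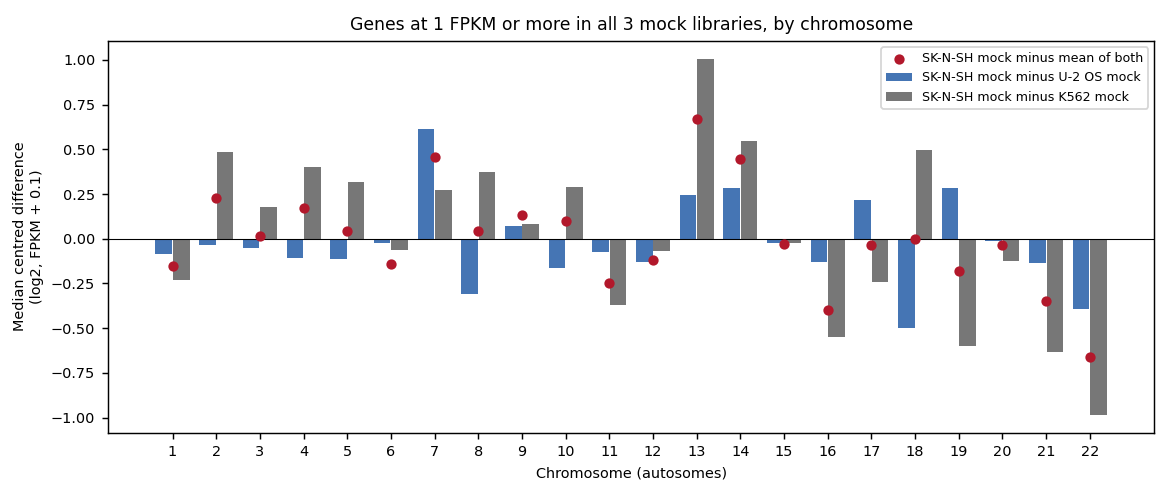
Median centred difference on the log2(FPKM + 0.1) scale by autosome, for genes at 1 FPKM or more in all 3 mock libraries. Red points give SK-N-SH minus the mean of both lines, blue bars SK-N-SH minus U-2 OS and grey bars SK-N-SH minus K562. Chromosomes 7, 9, 13 and 14 have all 3 marks above 0. Chromosomes 1, 6, 11, 12, 15, 16, 20, 21 and 22 have all 3 below, some by little (red point of chromosome 15 at -0.03). The 3 marks share the SK-N-SH library and are not independent. The red points run between -0.66 (chromosome 22) and 0.67 (chromosome 13).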

How the data were processed

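RNA was measured in 3 mock libraries, 1 per cell line. Total RNA was amplified to cDNA with a single-primer isothermal kit and sequenced as 50-base single-end reads. Per the study's methods and the submitters' processing notes, read quality was checked with FastQC, splice-aware mapping used TopHat2 2.1.0 (with Bowtie2) on hg19, and Cuffdiff with UCSC gene models gave gene levels. The deposited FPKM values were used as the authors computed them, scaled by Cuffdiff within each line's own table. Their columns of log2 fold changes, p-values and q-values compare PcTF with mock and were not used, nor was 1 column that averages several libraries.

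The tables were joined by gene symbol (23245 genes). The 8 genes that Cuffdiff marked as too deep or failed were dropped. The shifts removed by centring were -0.01 against the mean, 0.09 against U-2 OS and -0.11 against K562. Because each table was normalized separately, levels across lines carry that limit: the 100 highest genes held 30.1% of summed FPKM in SK-N-SH, 31.9% in U-2 OS and 48.6% in K562. FPKM below a few reads, and genes overlapping others, are uncertain. The depths were estimated from whole multiples (within 3%) of 1 read in single-exon genes, of which 97.4% fitted in SK-N-SH, 97.0% in U-2 OS and 97.6% in K562. Intervals are exact Poisson on the estimated reads, with transcript lengths from GENCODE.

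The 37 gene lists, the members and the rule for named genes were chosen with earlier results of these data known. The rule named the 15 highest and 15 lowest genes, all measured noradrenergic and catecholamine genes, up to 6 of each other list by size of difference, the polycomb panel, reference genes and markers. Other genes named, and the HOX and ribosomal protein lists (chosen by symbol), were chosen after values were seen. Some genes of the lists, and those on the Y chromosome and XIST, are not reported. Analyses used Python with pandas, scipy and matplotlib, and the script was tested on simulated data.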

Additional observations from a re-analysis of the deposited data

How the results depend on the processing

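The counts moved by over 1.5 times with the level added before the log, a higher filter and another threshold, which set how many genes could be called. With 1 FPKM added in place of 0.1, 1009 genes were higher and 576 lower, 481 higher and 149 lower than each line, and 65.7% of matrix genes were higher. With a minimum of 5 FPKM these counts were 1376, 921, 504 and 304. At a 2-fold threshold they were 3771, 3127, 1547 and 1100. Adding 0.01 FPKM, no filter, no centring, upper quartile scaling, loci of 300 bp or more, and leaving out small RNA genes (chosen after seeing the data) kept all 4 counts within 1.5 times. Against U-2 OS alone 1215 genes were higher, with 77.8% of noradrenergic core factors and 37.1% of matrix genes. Against K562 alone 3469 genes were higher and 2272 lower. Among the genes named in the text, called differences that changed sign against U-2 OS were BDNF (-0.60), CADM1 (-0.19), CLU (-1.21), HES6 (0.27), ROBO1 (-2.24), SNAP25 (-0.024), SPARC (-0.47) and YAP1 (-0.56). Those that changed sign against K562 were ARHGDIB (-0.18), DLK1 (-0.14), COL11A1 (1.82), COL12A1 (0.53), FGFR2 (0.74) and SEMA3E (1.11), and AMPH, BMP4, EPHA3, EPHA5, HOXA13 and HOXA6, listed at 0 in both lines and so all at the centring value of 0.11. With the U2OS-dTF library in place of mock U-2 OS 1439 genes were higher than each line, and EPHA3 changed to 0.081. In the PcTF-transfected libraries the called differences of CLU and SNORD38B changed to -0.074 and 6.32, and that of RPL21, under 1 FPKM in each mock library and not called, to 0.070. The cause was not tested. The medians of chromosomes 7, 13, 14 and 22 kept their sign in each setting run on them. No paired analysis was possible because each line has 1 mock library, and for the same reason no library could be left out. Depth limits low genes: in SK-N-SH, LMO1 rested on about 7 reads and MYCN on about 12.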

Other observations

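The long genes with the largest positive differences, listed after small RNA genes were set aside and so chosen after their values were seen, added several signalling genes to those above. RGS4, a regulator of G protein signalling, had 187 FPKM in SK-N-SH, against 0.25 in U-2 OS and 0 in K562. The WNT antagonists DKK1 and DKK2 were both high. DKK1 had 83.5 FPKM in SK-N-SH, against 0.639 in U-2 OS and 0 in K562. DKK2 had 184 FPKM in SK-N-SH, against 1.25 in U-2 OS and 0 in K562. C7, a terminal complement component, had 89.7 FPKM in SK-N-SH, against 0.591 in U-2 OS and 0 in K562. NPR3, the natriuretic peptide clearance receptor, had 87.7 FPKM in SK-N-SH, against 0.265 in U-2 OS and 0 in K562. SUCNR1, the succinate receptor, had 63.8 FPKM in SK-N-SH, against 0.142 in U-2 OS and 0 in K562. GNG8, a G protein gamma subunit, had 116 FPKM, about 141 reads of a short transcript, and was listed at 0 in both other lines. All 40 of the largest long-gene differences in the positive direction, and all 40 in the negative direction, were past 4-fold the same way in the PcTF-transfected libraries. At the negative end, APOBEC3B, a cytidine deaminase, was listed at 0 in SK-N-SH with 24.7 FPKM in U-2 OS and 13 in K562, and NRIP1, a nuclear receptor corepressor, was at 0.235 FPKM in SK-N-SH, 49.9 in U-2 OS and 19.2 in K562.

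Cytosolic ribosomal protein genes separated SK-N-SH from K562 and not from U-2 OS. Of 79 measured genes 52 were 4-fold or more below K562, against 16.5% of all measured genes, and the median difference was -2.67 against K562 and 0.30 against U-2 OS. RPS25 was at 659 FPKM in SK-N-SH, 332 in U-2 OS and 12433 in K562, and RPL23 at 391 FPKM in SK-N-SH, 145 in U-2 OS and 11463 in K562. Their summed level was 17113 FPKM in SK-N-SH, 12949 in U-2 OS and 151248 in K562. RPL21, a member with many pseudogenes, was under 1 FPKM in all 3 lines, and its division of reads is uncertain.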
